A study of Drosophila melanogaster with 2 samples.

Results

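Intron summits near a transcript start are positions where tagged CG10462 protein was found on chromatin inside a gene, outside every annotated exon and more than 500 and at most 2000 bp from the nearest transcript start on either strand. They were chosen by position alone, from the reproducible peaks of the experiment in genome build dm6. Of 2993 such peaks, 401 (13.4%) had their summit, the position of highest enrichment within the peak, in this band. Another 548 summits lay in introns over 2000 bp from any start (far-intron summits) and 1603 lay within 500 bp of a start (promoter summits), and these served for comparison.

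The study mapped CG10462 by chromatin immunoprecipitation with sequencing, in which DNA bound to a protein is pulled down with an antibody and read. The embryos, 0 to 24 hours old and of both sexes pooled, came from a stable transgenic Drosophila melanogaster line that makes CG10462 fused at its C-terminal end to green fluorescent protein, and the antibody was to that tag. There were 2 samples, labelled biological replicates 2 and 3, in 1 group, which leaves the 2 replicates as the one pair of samples that can be set side by side. Both carry the tag on a transgene, and whole embryos of this age span mix all cell types and most of embryogenesis. The untagged or input control was not analysed here, and the files give no read counts, so depth is unknown.

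In fly genes the intron that follows a transcript start often holds enhancers, the DNA elements that raise transcription from a distance, and many genes have further starts inside their introns. A summit in such an intron can therefore lie downstream of the start that made the intron, upstream of an alternative start of the same gene, or beside the start of another gene nested within it. CG10462 itself is named in the annotation only by its number. Its gene, on 2L from 19732080 to 19735980, had some sequence in this band and held 0 of these summits.

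The sequences at 6 of the strongest 7 of these summits are shown for their content of A and T, which over the class was highest at the centre; that in HmgZ and HmgD, the third strongest, is not printed. Each line gives a summit of dm6 with 50 bp on either side, read along the plus strand, and the capitals mark the longest unbroken run of A and T in it, the leftmost where runs tie, as at Trl. The host genes are ush (chr2L:481026-481126), CG11050 (chr2L:6612667-6612767), Lk6 (chr3R:11761008-11761108), CG32772 (chrX:4910312-4910412), CG9663 (chr2L:3302154-3302254) and Trl (chr3L:14759453-14759553).
ush: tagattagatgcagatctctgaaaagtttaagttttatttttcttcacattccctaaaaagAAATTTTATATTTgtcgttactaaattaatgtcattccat
CG11050: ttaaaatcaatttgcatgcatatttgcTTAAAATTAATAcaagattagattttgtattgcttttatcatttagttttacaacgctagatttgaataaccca
Lk6: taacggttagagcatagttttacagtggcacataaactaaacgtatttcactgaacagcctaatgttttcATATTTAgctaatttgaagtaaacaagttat
CG32772: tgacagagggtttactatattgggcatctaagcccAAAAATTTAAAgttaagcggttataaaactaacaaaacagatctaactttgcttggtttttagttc
CG9663: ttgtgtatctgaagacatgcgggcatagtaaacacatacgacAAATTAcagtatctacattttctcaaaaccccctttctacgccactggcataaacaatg
Trl: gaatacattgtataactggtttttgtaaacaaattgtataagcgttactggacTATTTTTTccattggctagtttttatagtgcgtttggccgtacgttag

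These 6 stretches held between 23.8% G and C, at CG11050, and 39.6%, at CG9663, the last not below the 38.6% of all intron sequence in the band. The marked run was 13 bases at ush and 6 at CG9663. Over all 401 summits the longest such run in a stretch of this length had a median of 10 bases, against 7 in the stretch centred 400 bp to the left. A run of 15 bases or more was present in 78 summits (19.5%) and in 4.24% of the left flanks. The same shares were 19.8% and 5.43% for promoter summits and 14.8% and 4.38% for far-intron summits.

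The strongest summit of the whole list was one of the 401. It lay within ush (u-shaped, a cofactor of GATA transcription factors) and ranked 1 in both replicates, with the authors' signal value at 626 in replicate 2 and 469 in replicate 3. Signal values are on the peak caller's own scale and are read here only as ranks within a list. The start nearest to this summit was not one of ush but of cbt (cabut, a zinc finger transcription factor gene), 1388 bp away, and that start had a further reproducible summit within 500 bp.

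The other leading summits also kept their place in both replicates, with 1 exception among the strongest 15. The summit in CG11050 ranked 4 in replicate 2 and 8 in replicate 3. That in the overlapping HMG-box chromatin protein genes HmgZ and HmgD ranked 15 and 9, and that in Lk6, a kinase gene of translation control, ranked 10 and 17. CG32772 followed at 25 and 21. The summit in CG9663 ranked 23 and 31, and Trl, the gene of the GAGA factor, held one at 37 and 28.

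Further down, the summit in chif (a replication kinase regulator gene), which Hyls1 overlaps, ranked 54 in both replicates. Adf1, a transcription factor gene, was at 67 and 47, CG31635 at 75 and 70, and CG3726 at 78 and 61. NFAT was at 82 and 89, and Alh (Alhambra, a chromatin protein gene) at 90 and 116, while CG9837 was at 69 in replicate 2 and just outside the top 100 in replicate 3. The exception was cno (canoe, an adherens junction protein gene), with rank 72 in the pooled list, 27 in replicate 2 and 1115 in replicate 3. Of the 17 summits of this class among the 100 strongest pooled peaks, 16 ranked within the top 200 of both replicates. Pooled peaks rest on the reads of both replicates, so a high pooled rank is tied to high ranks in each. The same share for peaks outside this class is not given here.

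Below these ranks the replicates differed more. All 401 summits had an overlapping entry in the full list of replicate 2 and 393 had one in that of replicate 3. The overlap asked for was 1 bp, and 18 summits shared their entry with a neighbouring peak in each replicate. Among the 2993 strongest entries of replicate 2, 335 were overlapped, against 87.1% of all reproducible peaks, and among those of replicate 3 338 were, against 83.1%. Both conditions held for 278 (69.3%, 95% Wilson interval 64.6 to 73.6%), against 71.5% of all. Of the rest, 57 were in the stronger part of replicate 2 only, 60 in that of replicate 3 only and 6 in neither. The share did not pass the threshold against far-intron summits (65.0%, difference 4.36 percentage points, interval -1.71 to 10.3, adjusted Fisher's exact p = 0.229) or against promoter summits (75.2%, difference -5.91, interval -11.0 to -1.08, adjusted Fisher's exact p = 0.0642). When 50% as many of the strongest entries of each replicate were kept, the difference from far-intron summits was 12.7 points and passed (adjusted Fisher's exact p = 0.000322), and with the whole lists it was 0.742 points (0.615).

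**Figure D1:**
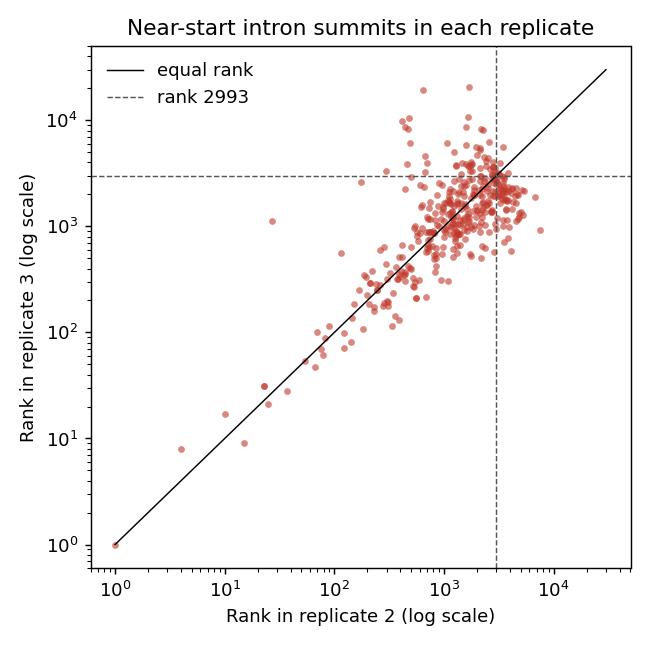
Rank of each near-start intron summit in replicate 2 (horizontal, log scale) and replicate 3 (vertical, log scale), 1 point per summit, for the 393 with an entry in both; the solid line marks equal rank and the dashed lines rank 2993. Points follow the line closely among the strongest entries and spread at lower ranks, with a small set above rank 5000 in replicate 3 that is within the top 1000 of replicate 2.

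Within 2-fold, the ranks were alike in the replicates for 284 of those 393 summits, and 177 ranked higher in replicate 2 and 214 in replicate 3. The 2-fold share over all reproducible peaks is not given here. A rank within the top 1000 of replicate 2 went with a rank past 5000, or with no entry, in replicate 3 for 11 summits (2.74%, against 1.87% of all reproducible peaks), and the opposite held for 1 (0.249%, against 0.301%). Over all 2993 peaks, 2991 had an entry in replicate 2 and 2950 in replicate 3. By size of the difference, the most distant were the summit in Cirl (the latrophilin receptor gene), at 647 in replicate 2 and 19111 in replicate 3, and that in siz (schizo, a gene of a small GTPase activator), at 1688 and 20577. In the other direction they were lola (a transcription factor gene), at 7499 and 932, and tacc (a centrosome protein gene), at 6698 and 1891. The 11 summits, a set picked after the ranks were seen, had a mean of 38.8% G and C in the central 100 bp (SD 5.40), against 31.6% (SD 7.25) over all 401, and 5 of them had a centre lower than both flanks. Among them were summits in Gdh (glutamate dehydrogenase), at 417 and 9807, and in larp, at 349 with no entry in replicate 3. Any part of composition in the difference between replicates was not tested.

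Intron sequence in this band was denser in summits than intron sequence farther away. It amounted to 11.4 Mb and held 35.0 summits per Mb, while 42.3 Mb of farther intron held 12.9 per Mb, a ratio of 2.71 (exact interval 2.37 to 3.08, exact conditional p = 1.24e-47). Peaks are not biological replicates, so this and the other tests across summits describe the list and not the spread between embryos. Density fell with distance inside the band. From 500 to 750 bp it was 53.1 per Mb (121 summits), from 750 to 1000 bp 36.5, from 1000 to 1250 bp 36.2, from 1250 to 1500 bp 30.3, from 1500 to 1750 bp 23.1 and from 1750 to 2000 bp 23.6 (37 summits). Closer to the start, introns held 117 per Mb in the first 250 bp and 71.7 in the next, and from 2000 to 5000 bp the values lay between 15.9 and 28.0. Each step from 2000 to 5000 bp was thus above the 12.9 of all farther intron. The ratio of 2.71 therefore rests in part on sparser intron over 5000 bp from a start.

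**Figure D2:**
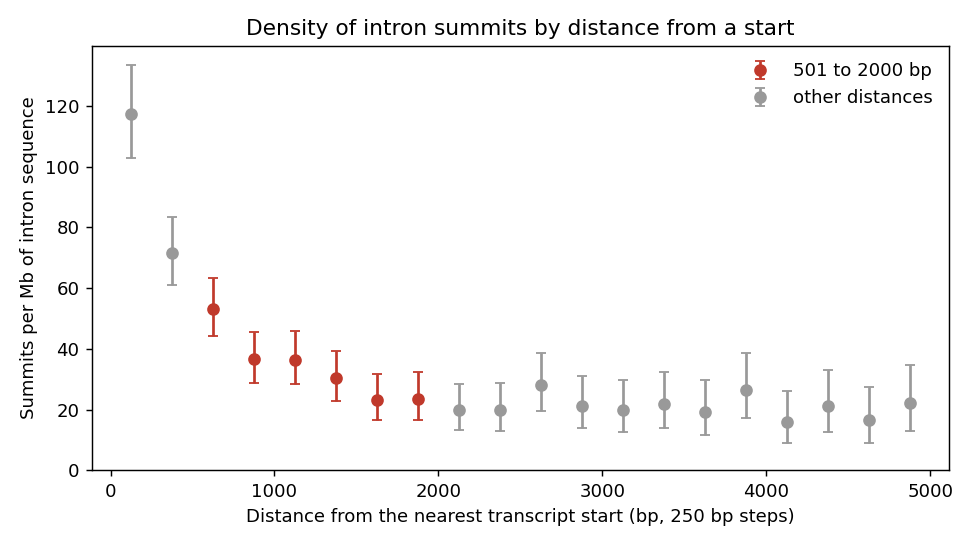
Summits per Mb of intron sequence (vertical) in steps of 250 bp from the nearest transcript start (horizontal); bars are exact 95% Poisson intervals and red points are the band of 500 to 2000 bp. Density falls from 53.1 to about 23 per Mb across the band, and the last points of the band lie within the range seen from 2000 to 5000 bp.

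The summits next to the edges of the band ranked as follows. Just inside the inner edge were those in CG18135 (at the inner limit itself, pooled rank 1948), CG5854 (512 bp, rank 1046) and CG8128 (515 bp, rank 955). Just outside it were those in Eip63F-1 (499 bp, rank 1371), Hers (499 bp, rank 2841) and sdt (496 bp, rank 2059). At the outer edge, CG43658 (1994 bp, rank 2232), Ptp61F (1993 bp, rank 2560) and msn (1971 bp, rank 710) were inside, and hiw (2002 bp, rank 1416), CG3764 (2005 bp, rank 1555) and px (2013 bp, rank 1494) outside. The median distance was 1018 bp, with quartiles at 712 and 1391 bp, and 87 of the 401 peaks reached to within 500 bp of the start.

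Most of the summits had a start of their own gene nearest. That start belonged to a gene holding the summit in 349 cases (87.0%). In 238 of these the summit was downstream of it, and in 111 it was upstream, before an alternative start further inside the gene. The other 52 had the start of a different gene nearest, 39 of them upstream of it and 13 downstream. Over the sequence in the band, the side made little difference to density, with 33.9 summits per Mb (exact interval 29.9 to 38.4) downstream of the nearest start and 37.0 (31.3 to 43.4) upstream.

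Introns that come first in some transcript of the gene held 334 of the summits (83.3%), the second intron 43 and later ones 24. By density this was 45.3 per Mb (40.5 to 50.4) in sequence that is a first intron in any transcript and 16.5 per Mb (12.8 to 20.9) in other introns. The order was the same in each part of the band. From 1000 to 1500 bp the values were 46.3 and 10.9 per Mb, from 1500 to 2000 bp they were 30.1 and 13.5, and from 500 to 1000 bp first-intron sequence held 54.0 and other introns fewer. The shortest intron around each summit had a median length of 4959 bp and ran from 140 bp, in CG11050, to 78340 bp, in Ptp61F. The nearest exon edge was at a median of 620 bp, and 54 of the peaks touched an exon with their margin.

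Near-start intron summits were stronger than those deeper in introns. The strongest 25% of the list by signal held 103 of the 401 (25.7%, Wilson interval 21.7 to 30.2%) and 84 of the 548 far-intron summits (15.3%, 12.6 to 18.6%). The difference of 10.4 percentage points (interval 5.17 to 15.6) passed the threshold (adjusted Fisher's exact p = 0.000681). Against promoter summits, of which 29.4% were in that set, the difference was -3.70 points (interval -8.33 to 1.30, adjusted Fisher's exact p = 0.229) and did not pass. Its sign depended on the replicate: in the strongest entries of replicate 2 alone it was 2.18 points, and in those of replicate 3 alone -7.99 points, which passed (adjusted Fisher's exact p = 0.00234). The median rank was 1322 for the near-start, 1783.5 for the far-intron and 1357 for the promoter summits.

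**Figure D3:**
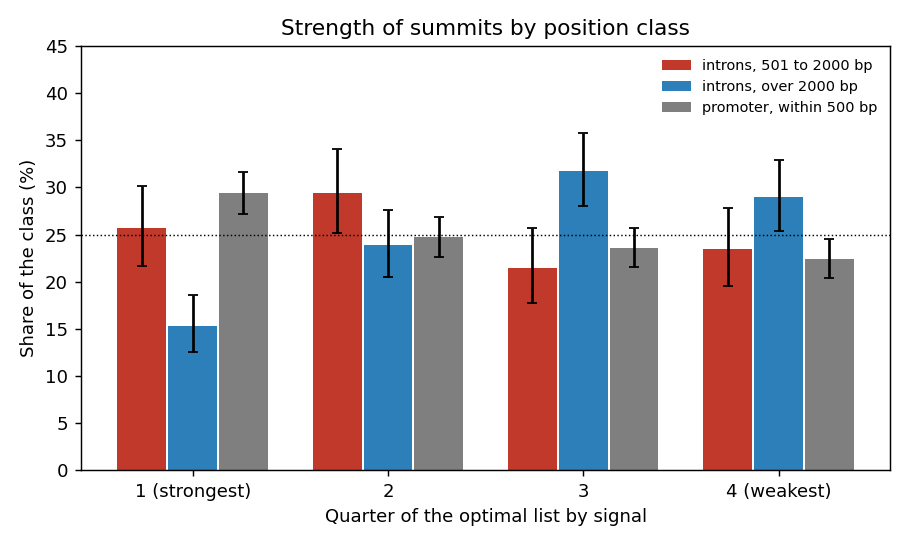
Share of each position class (vertical, in percent) that fell in each successive 25% of the reproducible list by signal (horizontal, strongest at left), for 401 near-start intron, 548 far-intron and 1603 promoter summits; bars are 95% Wilson intervals and the dotted line marks equal shares of 25%. Far-intron summits are the lowest in the strongest 25%, at 15.3%, and near-start intron summits, at 25.7%, are close to the dotted line.

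Like most far-intron summits, most summits in the band had no other reproducible summit at the start nearest to them. That start had another reproducible summit within 500 bp for 74 of the 401 (18.5%) and for 90 of the 548 far-intron summits (16.4%), a difference of 2.03 points (interval -2.80 to 7.02) that did not pass (adjusted Fisher's exact p = 0.507). In the strongest entries of replicate 3 alone it was 5.39 points and passed (0.0368). Such pairs were present at cbt, Trl, Adf1 and CG31635 among the strongest 15. The 74 summits belonged to 71 starts. Counting any start of the host genes, 127 of 385 (33.0%) had a promoter summit. Shares over all starts and over all genes are not given here, so neither value can be called high or low. The next reproducible summit of any kind was at a median of 4481 bp, and for 62 summits it was within 1000 bp.

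The 401 summits lay in 385 host genes, counting each gene that spans a summit, and 396 had a protein-coding host. Of 9443 genes with any sequence in the band, 4.08% were hosts. A single summit was present in 348 of them, 26 held 2, and 11 held 3 or more. The overlapping pair of long genes CG1677 and lncRNA:CR44357 on X held the most, 8, at pooled ranks from 220 to 2964, and 8 of 8 had the start of a gene other than these nearest. The strongest was 792 bp downstream of a start of Dok, and 2 at ranks 332 and 1317 were 784 and 577 bp upstream of brk (brinker, a repressor of Dpp target genes). Those 2 peaks overlapped, with summits 207 bp apart, and shared 1 entry in each replicate, at rank 556 in replicate 2 and 211 in replicate 3. Further along were summits 974 bp upstream and 997 bp downstream of CBP, 1944 and 750 bp upstream of unc-119 and 593 bp upstream of CG42780.

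Of the remaining genes with several summits, Tlk (tousled-like kinase) held 4, at ranks from 904 to 2918. Trl held 3, at ranks 33, 653 and 1607, with ranks of 37, 781 and 2389 in replicate 2 and 28, 654 and 1353 in replicate 3. CHES-1-like, a forkhead factor gene, held 3 close together in rank, at 340, 344 and 356. RhoGAP18B, Tpr2, Dys (dystrophin), pum (the translational repressor Pumilio), tou and Svil each held 3, the strongest of them at rank 775 in RhoGAP18B. A pair of summits 207 bp apart in tou shared its entries in both replicates.

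Genes of Dpp and receptor tyrosine kinase signalling were among the hosts, and the listed gap, pair-rule and segment polarity genes were not. The lists that follow were written with earlier results of these data known, and their counts and intervals carry no test. Dpp is the fly bone morphogenetic protein, which patterns the dorsal embryo. Of 20 genes with sequence in the band on the list for its pathway, dorsal patterning and GATA factors, 5 were hosts (25%). Among all 9443 genes with such sequence 4.08% were. Host shares do not allow for the amount of sequence per gene, and the 9443 genes had 12353 kb, counted gene by gene. The list held 8 summits in 88.0 kb (91.0 per Mb, exact Poisson interval 39.3 to 179, against 35.0 per Mb over the band). After ush the strongest were in Mad, the transcription factor of the pathway, at rank 225 (277 in replicate 2 and 178 in replicate 3), and shn (schnurri, a corepressor with Mad) at 794 (709 and 1170). The others were the receptor gene tkv and pnt, an ETS factor gene. The latter stands both in this list and in the next, and supplied 2 of the summits of each. Of 24 genes of the EGF and FGF receptor, Ras and MAP kinase pathways 6 were hosts (25%), with 79.0 summits per Mb (31.7 to 163). Besides Lk6 these were the adaptor drk at rank 520 (934 and 312), the kinase Raf at 1410 (2073 and 1000), htl, sty and again pnt. In drk and Raf the nearest start belonged to a gene other than the host, mars and lncRNA:CR33218.

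Of 14 gap, head gap and pair-rule genes and 21 segment polarity, Wingless and Hedgehog genes with sequence in the band, 0 were hosts. The exact upper limits on their densities, 127 and 63.2 per Mb, lie above the overall 35.0, so a lower density was not detectable at this amount of sequence. Beside the 4.08% of all genes that were hosts, the Hox list had 1 host of 10, Abd-B at rank 1056 (1202 and 1072), and the Notch list 1 of 16, the ubiquitin ligase gene neur at 1092 (2833 and 575). Mesoderm and muscle regulators had 1 of 21, zfh1 at 396 (443 and 356). By density the Hox, Notch and mesoderm lists held 25.9, 23.3 and 22.2 summits per Mb, each from 1 summit. These values lie below the 35.0 of all sequence in the band, so the host shares do not show more summits for their sequence. Their exact Poisson intervals (0.656 to 144, 0.591 to 130 and 0.561 to 124) include 35.0, so fewer summits are not shown either. None of 13 cytosolic ribosomal protein genes was a host, and these genes had 3.25 kb in the band together.

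Chromatin and promoter-binding factor genes had several summits in little sequence, 3 of them in Trl. The insulator and promoter-binding list had 3 hosts of 15, Trl, Adf1 and psq, the last at rank 2712 (3493 in replicate 2 and 1909 in replicate 3), and 5 summits in 19.0 kb (263 per Mb, exact Poisson interval 85.3 to 613). The Polycomb and Trithorax group list had 4 of 31, namely Trl, ph-p at rank 1023 (603 and 2457), lola at 2233 and kis, with 161 summits per Mb (59.2 to 351). Trl stands in both lists and supplied 3 of the summits of each. Beside these lists and those that follow, 4.08% of all genes with sequence in the band were hosts, and the whole band held 35.0 per Mb. The lists were written with earlier results known, so their intervals are no test of a higher density. Among neuroblast genes 2 of 12 were hosts, brat (a translational repressor) at 145 (152 and 185) and insc at 2198 (2750 and 2820). That list held 38.8 summits per Mb (4.70 to 140), near the 35.0 of all sequence in the band. The nearest start was that of sktl at insc and of small or long noncoding RNA genes at lola and kis.

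Densities near or below the overall 35.0 per Mb held for the axon guidance and adhesion (28.6), cytoskeleton (31.6) and hormone (26.9) lists. Their exact Poisson intervals (9.27 to 66.6, 6.51 to 92.3 and 5.54 to 78.5) all include 35.0. The axon guidance and adhesion list had 4 hosts of 35, led by fra (the netrin receptor frazzled) at 455 (474 and 420), its ligand gene NetB at 1149 (666 and 4581) and kirre at 1551 (1890 and 1040). Cytoskeleton and small GTPase genes had 3 of 26, namely Msp300 at 777 (790 and 910), RhoGEF64C at 1001 (1195 and 1055) and tsr (cofilin) at 1367 (1305 and 1727). Hormone receptor and response genes had 3 of 19, namely EcR (the ecdysone receptor) at 930 (1026 and 880), br at 1796 (3473 and 1148) and Hr4 at 2808 (2643 and 3461). The nearest start was that of another gene at fra (CG33752), NetB (hog), kirre (CG32795), RhoGEF64C (CG13713), br (Mur2B) and EcR, where it was a tRNA gene.

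Chromosomes differed in how many of their summits were of this kind. The share was 96 of 513 on X (18.7%, Wilson interval 15.6 to 22.3%) and 52 of 586 on 2L (8.87%, 6.83 to 11.5%), while 3R had 14.2%, 2R 13.5% and 3L 12.5%. Per Mb of intron sequence in the band, X held 43.6 (exact interval 35.3 to 53.3), 3R 39.1, 3L 36.0, 2R 32.1 and 2L 25.1 (18.8 to 33.0). These were not tested against each other, and 8 of the 96 summits on X lay in the overlapping genes CG1677 and lncRNA:CR44357. Chromosome 4 held 0 in 0.129 Mb, which allows up to 28.5 per Mb.

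The summits sat on a narrow valley of G and C. Mean G and C content was 31.6% (SD 7.25, 401 summits) in the central 100 bp, against 43.2% (SD 9.06) in the 100 bp centred 400 bp to the left and 43.4% (SD 9.90) to the right. All intron sequence of the band held 38.6%, so the flanks were above it and the centres below. The centre was lower than both flanks in 297 summits (74.1%, Wilson interval 69.6 to 78.1%), against 69.8% of all reproducible peaks. Far-intron summits had 73.5% (difference 0.525 points, interval -5.19 to 6.11, adjusted Fisher's exact p = 0.881) and promoter summits 68.7% (difference 5.32 points, interval 0.297 to 9.98, adjusted Fisher's exact p = 0.0905), and neither difference passed. With flanks 300 bp away the difference from promoters was 11.7 points and passed (adjusted Fisher's exact p = 3.42e-05), and with 200 bp windows it was 0.393 points (0.903). The lowest centre, at lbk (pooled rank 638), held 15% and the highest, in an intron of elav and arg (rank 2415), 58%.

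**Figure D4:**
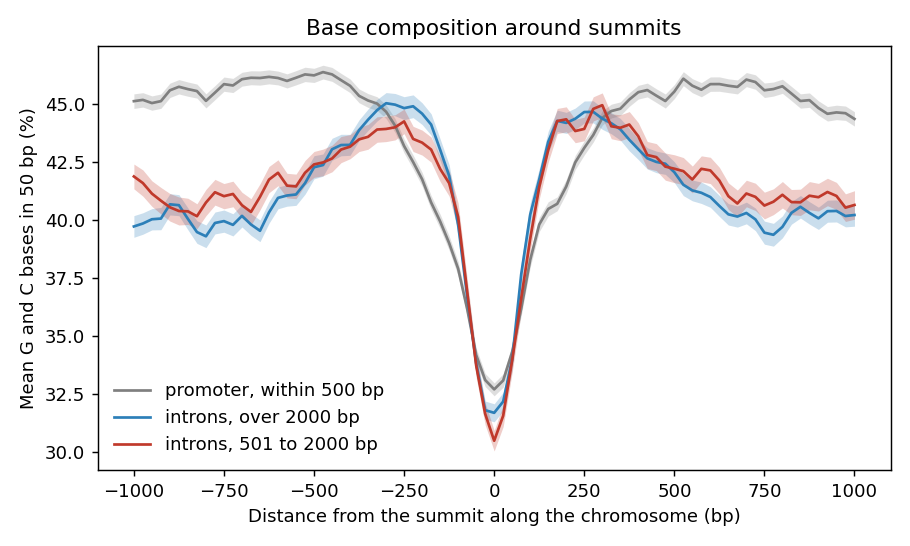
Mean percentage of G and C bases in 50 bp windows (vertical) by distance from the summit along the chromosome (horizontal, bp); bands are 1 standard error over 401 near-start intron, 548 far-intron and 1603 promoter summits. All 3 classes fall to between 30.5% and 32.7% at the summit, and both intron classes rise to about 45% near 300 bp on the right before settling lower, while promoter flanks stay high.

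Short sequences in the centre differed in frequency from promoter summits for a promoter element. Of 21 sequences counted on either strand of the central 100 bp, 2 passed the threshold against promoter summits and 0 against far-intron summits by Fisher's exact test, with 5 and 3 at an unadjusted p under 0.05. Both that passed belong to the DNA replication-related element, TATCGATA, which is typical of promoters of genes used by most cells. Its part CGATA was in 41 near-start centres (10.2%) and 292 promoter centres (18.2%), a difference of -7.99 points (interval -11.2 to -4.18, adjusted Fisher's exact p = 0.00284). The full TATCGATA, which contains CGATA, was in 1 (0.249%) and 41 (2.56%), a difference of -2.31 points (interval -3.23 to -0.979, adjusted Fisher's exact p = 0.0303). In all 100 bp stretches of intron in the band the shares were 11.0% for CGATA and 0.206% for TATCGATA.

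The single TATCGATA lay in an intron of Stt3A, a gene of protein glycosylation, at a summit of rank 2030 (chrX:21053241-21053341). The strongest near-start summit with CGATA that can be shown lay in CG4496, at rank 99 (chr2L:7188588-7188688). The capitals mark the match in each.
Stt3A: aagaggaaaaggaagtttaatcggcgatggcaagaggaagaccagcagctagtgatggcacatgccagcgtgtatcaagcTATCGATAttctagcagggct
CG4496: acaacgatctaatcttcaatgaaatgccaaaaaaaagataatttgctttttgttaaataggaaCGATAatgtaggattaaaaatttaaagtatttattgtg

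Some sequences made only of A and T were more frequent in centres than in left flanks. The centres also held less G and C (mean 31.6%, against 43.2% in left flanks), and the part of composition in these counts was not tested. ATTTAAAA was in 33 near-start centres (8.23%), in 4 of their left flanks and in 3.13% of all 100 bp stretches of intron in the band. The sequence was about as frequent in promoter centres (7.92%), and over all reproducible peaks it was in 6.92% of centres and 1.74% of left flanks. It was in 20 far-intron centres (3.65%), a difference of 4.58 points (interval 1.58 to 7.93) that did not pass (adjusted Fisher's exact p = 0.0533). It was 4.49 points in replicate 2 alone, which passed (0.0493), and 2.35 points in replicate 3 alone (0.689). The shorter TTTAAA, contained in it, was in 93 centres and 23 left flanks, and TATAAA in 86 and 35. Over all reproducible peaks TTTAAA was in 21.9% of centres and 7.18% of left flanks, beside 23.2% and 5.74% at the near-start summits. For TATAAA the shares were 22.6% and 8.52% over all reproducible peaks, beside 21.4% and 8.73% at the near-start summits.

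Sites named for embryonic factors gave no difference past the threshold with the settings used here, and some of them depended on the replicate or window. The GATA sequence GATAA was in 100 near-start centres (24.9%) and 70 left flanks, with 21.1% in all intron stretches of the band. The Sox sequence AACAAT was in 73 centres (18.2%), against 12.8% of far-intron and 13.0% of promoter centres (adjusted Fisher's exact p = 0.145 and 0.0830). The E-box CATATG was in 28 (6.98%), against 3.65% and 3.74% (0.145 and 0.0830). Against promoters CATATG passed with 200 bp windows (6.92 points, adjusted Fisher's exact p = 0.000141). It did not pass with 50 bp windows (1.12 points, 0.687), in replicate 2 alone (2.47 points, 0.289) or in replicate 3 alone (1.64 points, 0.657). AACAAT differed from promoters by 6.37 points in replicate 2 alone, which passed (0.0248), and by 0.151 points in replicate 3 alone. The Zelda core CAGGTA was in 6 centres and 8 left flanks. On the other side, GAGAG, bound by the GAGA factor, was in 36 centres and 91 left flanks, CACACA in 28 and 60, and the GC box GGGCGG in 2 and 28. The same direction held over all reproducible peaks. There GAGAG was in 9.02% of centres and 15.2% of left flanks, beside 8.98% and 22.7% at the near-start summits. For CACACA the shares were 5.45% and 10.99%, beside 6.98% and 14.96%. For GGGCGG they were 1.1% and 4.88%, beside 0.499% and 6.98%.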

How the data were processed

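Per the labels and the sample notes deposited with the files, the authors called peaks on each replicate and on pooled reads against 1 control and kept an optimal list by the irreproducible discovery rate; which aligner and caller did so is not given in the sources used here. The deposited signal value of each peak, in the caller's own scale, ranked entries within a list. The dm6 optimal list held 2993 entries, equal to the strongest 2993 of the 30000 pooled ones. Lists in dm3 were not used.

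Summits were placed on Ensembl release 115 (24111 starts, transposable elements left out), with sequence from Release 6, the dm6 assembly. Shares were compared by Fisher's exact test, two-sided, with Newcombe intervals of the difference and Benjamini-Hochberg adjustment at 0.05 over 7 share comparisons and, separately, 42 motif comparisons (21 sequences). Densities used the exact conditional test and exact Poisson intervals. Intervals cover counting error only. Members, gene lists (14, with 356 of 377 names matched) and sequences were chosen with earlier results of these data known.

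Named by rule are the hosts of the strongest 15 summits, hosts of 3 or more, up to 3 hosts per list, those at the edges of the band and those most unlike between replicates. Outside it, chosen after their values were seen, are Gdh, larp, lbk, elav, arg, Stt3A, CG4496 and the other list hosts. Alternatives were other distances, windows, overlaps and list parts, protein-coding genes, peak midpoints and each replicate alone. The tests were checked on simulated data. Computation used scipy 1.17.1, pandas 2.3.3 and numpy 2.4.6 under Python 3.11.15, and plots matplotlib 3.10.9.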

Additional observations from a re-analysis of the deposited data

Results flagged for a closer look

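Entries outside the reproducible list also fell in this band. Among the pooled entries ranked 2994 to 5986, just below that list, 432 (14.4%, Wilson interval 13.2 to 15.7%) had their summit in an intron over 500 and up to 2000 bp from a start, or 37.7 per Mb. These entries are in no comparison above; any count over the 3 that a count of 0 allows was listed, so the listing itself says little. Among the last 2993 entries of the pooled list the number was 350 (11.7%), or 30.6 per Mb, while far introns held 15.1 and 22.6 per Mb in these parts.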

How the results depend on the processing

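The density ratio to far introns (2.62 to 3.80) and the higher share of strong summits than in far introns (7.69 to 13.6 points) kept their direction and passed under every alternative run for them. The number of summits ran from 221 in the stronger part of the list to 519. Depth is unknown and limits all of this. No paired analysis was possible because there is 1 group.

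Overlap in both replicates against far introns reversed to -0.583 points without replicate 3 (4.73 without replicate 2), passed with fewer entries kept (12.7) and was 0.742 with the whole lists. Against promoters it passed at 500 to 3000 bp (-7.03), at 300 to 2000 bp (-6.53), in the stronger part of the list (-4.14) and without replicate 3 (-6.10; -0.0526 without replicate 2). Strong summits against promoters passed at 500 to 3000 bp (-5.88) and, leaving out each replicate, ran from -7.99 to 2.18 points. A promoter summit at the nearest start differed from far introns by -0.793 points in the stronger part of the list, and by 3.12 to 5.39 with each replicate left out, the latter past the threshold. The share of low centres against far introns reversed to -0.0392 at 300 to 2000 bp, -1.13 with protein-coding genes, -0.340 with midpoints and -2.65 without replicate 2 (0.438 without replicate 3); against promoters it passed at 500 to 3000 bp (5.44) and with flanks at 300 bp (11.7), but was 0.393 with 200 bp windows and 2.02 to 3.13 with a replicate left out. Motifs past the threshold against far introns numbered 1 at 500 to 3000 bp, at 300 to 2000 bp, with midpoints and with 200 bp windows, and 0 to 2 with a replicate left out. The motif was CATATG in the first case, ATTTAAAA in the other 3, and ATTTAAAA and AACAAT without replicate 3. CATATG against promoters passed at 500 to 3000 bp (3.58), with protein-coding genes (3.61), midpoints (3.47) and 200 bp windows (6.92). It did not pass with 50 bp windows (1.12) or with either replicate left out (1.64 to 2.47). Against promoters, motifs past the threshold numbered 1 at 500 to 1500 bp and with 50 bp windows, 0 in the stronger part and 5 with 200 bp windows. CGATA against promoters no longer passed in the stronger part (-6.53), nor TATCGATA there (-2.42), at 500 to 1500 bp (-2.25) or with 50 bp windows (-1.12). The causes were not tested.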
